A study of Homo sapiens with 10 samples.

Results

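The insulin and insulin-like growth factor (IGF) receptor axis was followed here through its histone marks. It was taken as 10 genes: the receptors IGF1R, IGF2R and INSR, the adaptors IRS1 and IRS2, and the IGF binding proteins IGFBP2, IGFBP3, IGFBP4, IGFBP5 and IGFBP6. All rows of the deposited annotated count table that carried 1 of these symbols were used, which gave 100 regions of 67387 annotated and 169637 counted. Of the 10 genes, 9 had at least 1 region and IGFBP4 had none. IGF1R held 32 regions, IRS1 12, IGF2R, INSR and IGFBP3 11 each, IRS2 and IGFBP5 10 each, IGFBP6 2 and IGFBP2 1. By the deposited annotation class, 26 regions lay within 1 kb of a transcription start (called promoter regions here), 14 lay 1 to 3 kb from one (flank regions) and 60 lay elsewhere (distal regions).

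The measurement was ChIP-seq of H3K27ac, acetylation of histone H3 at lysine 27, a mark of active promoters and enhancers. The cells were H1975, a human lung adenocarcinoma line that carries mutant EGFR. DMSO controls spent 21 days without drug and 3 days in DMSO. Osimertinib DTPs (drug-tolerant persisters, the cells that outlast long drug exposure; DTP below) were held for 24 days in osimertinib, which blocks mutant EGFR, at 500 nM. The group osimertinib DTP + AZD5153 (DTP + AZD5153 below) received 500 nM osimertinib for 21 days, then 150 nM AZD5153, an inhibitor of BET bromodomain proteins, for 3 days. The labels do not say whether osimertinib was kept on in those last days, so time off osimertinib and exposure to AZD5153 cannot be told apart. All groups share 1 parental line, and each had 3 libraries, which the labels describe as biological replicates.

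As background, IGF1R and INSR are receptor tyrosine kinases for IGFs and insulin, and IRS1 and IRS2 are the adaptors that carry their signal to PI3K and AKT. IGF2R is not a kinase: it binds IGF2 and takes it to the lysosome. The IGF binding proteins hold IGFs outside the cell and limit or deliver them to the receptor. IGF1R signalling is widely studied as a route by which EGFR-mutant lung cancer cells survive EGFR inhibition. H3K27ac is neither RNA nor protein, and each region carries the symbol that the deposited annotation gives it. In a bulk culture, a change in the mark per cell and a change in the share of cells that carry it cannot be told apart.

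Library totals over all regions ran from 6263443 to 10463351, and the input had 1870885. Levels are given as CPM, that is counts scaled to a fixed TMM-adjusted library size, and all regions have the same width. Where a gene's counts are summed over its promoter or distal regions, the library size covers that class alone, with its own TMM scaling. CPM of such promoter or distal sums are therefore not on the scale of region CPM. Replicate 3 of DTP + AZD5153 stood apart, with a Spearman correlation of 0.430 and 0.354 to its own replicates, against 0.818 to 0.898 for every other replicate pair. Promoter regions held 66.7% of its annotated counts and 59.8% of those of DTP replicate 2, but 40.3% to 45.9% in the other 7. These 2, called the promoter-rich libraries here, were the highest of the 9 at 13 of the 26 member promoter regions (50% against 51.3% of all annotated promoter regions) and at 8 of the 60 member distal regions (13.3% against 5.74%). Results that rest on DTP + AZD5153 replicate 3 are also given without it. The epithelial markers EPCAM, CDH1, KRT7, KRT8, KRT18 and KRT19 all had promoter regions, with a summed level of 437.1 CPM or more in every library, and the 3 leukocyte markers had none. The 3 mesenchymal markers with a promoter region, of 4, had a summed level of 24.7 to 68.8 CPM in DMSO, 67.1 to 197.6 in DTP and 113.2 to 269 in DTP + AZD5153. The DMSO and DTP ranges overlapped. The highest values in the treated groups were those of the promoter-rich libraries, which also had the highest epithelial sums (964.5 and 950.5 CPM). In the same group order, 3 of 4 lung markers summed to 48.2 to 74.7, 54.6 to 82.9 and 59.7 to 109.8 CPM. These did not move together. NKX2-1 had 9.79 to 19.2, 23.1 to 49.4 and 21.8 to 83.3 CPM. SFTPB had 5.03 to 10.3, 2.82 to 5.26 and 1.28 to 2.5, and NAPSA 28.1 to 53.3, 24.57 to 28.7 and 24.35 to 35.4. CDH5, the only endothelial marker of 3 with a promoter region, had 10.6 to 31.3, 22.5 to 35.6 and 22.6 to 49.5. What part such marker differences have in the results below was not tested.

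In DTP against DMSO, H3K27ac rose at 4 member regions and fell at 11 (edgeR, adjusted p under 0.05, called hereafter). The regions that rose were 1 at IGF1R, 1 at IGFBP3 and 2 at IGFBP5. Those that fell were 3 at IGF1R, 4 at IGF2R, 2 at IGFBP3, and 1 each at IGFBP2 and IGFBP6. Over all 157919 regions tested, 5.58% were higher and 5.13% lower. The member shares were 4% and 11%, but all members come from the annotated regions. In a fit of the 67387 annotated regions alone, 5 members were higher and 11 lower, and 16% of those regions were called. The median log2 fold change was 0.11 over the members and 0.15 over all regions. By class, 9 of the 11 that fell were distal, or 15% of the 60 distal member regions. Of the 26 promoter and 14 flank regions, 3.85% and 7.14% fell. The share of all distal regions that fell was not computed, so these counts do not show a distal loss particular to the members. Summed per gene, 15.9% of all genes were called lower at their distal regions and 3.35% at their promoter regions. The libraries of the 2 groups did not overlap at any of the 15 called member regions. Over all members, DTP lay wholly above DMSO at 18 regions and wholly below at 23, called or not, beside 20.2% and 18.9% of all regions tested. IRS1, IRS2 and INSR had no called annotated region.

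The number of called regions depended on single libraries, and the share of all regions called moved with it. With 10.7% of all regions called with every library in, the members had 7, 0 and 1 calls when DMSO replicate 1, 2 or 3 was left out (5.04%, 0.701% and 1.94% of all regions). There were 6, 2 and 3 without DTP replicate 1, 2 or 3 (5.2%, 3% and 2.75%). Without replicate 1, 2 or 3 of DTP + AZD5153, which enters this comparison only through the shared filter, scaling and spread, there were 15, 19 and 31 (9.88%, 13.4% and 26.8%). All 15 were among the 31 called without that last library, 15 higher and 16 lower, when 14.2% of all regions were called higher and 12.7% lower. DESeq2 called 10 higher and 13 lower, and 17.7% of all regions. Same-numbered libraries of these groups deviated together, and with the replicate number as a block 13 regions were called, 12 of them among the 15.

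**Figure D1:**
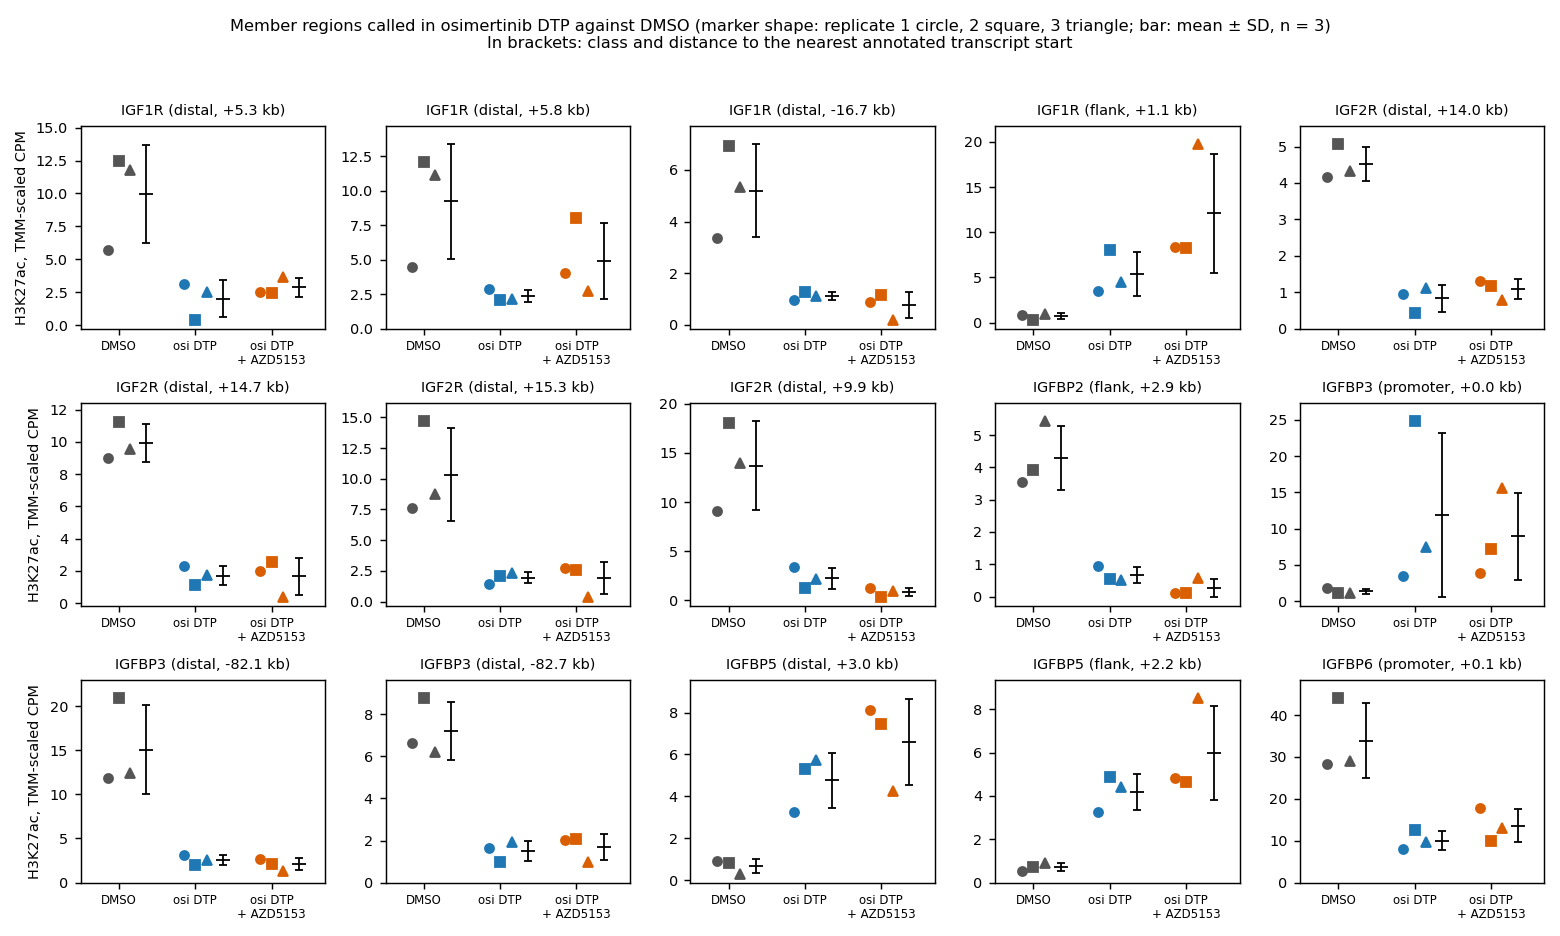
The 15 member regions called in DTP against DMSO, with TMM-scaled CPM of H3K27ac on the y axis and the 3 groups on the x axis; each point is a library and the bar is the mean ± SD of 3. At every region the 3 DTP points lie outside the range of the 3 DMSO points, and at IGFBP3 the promoter region spans 3.54 to 24.8 CPM within DTP.

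IGF1R, the IGF1 receptor (chr15:98648539-98964530 in RefSeq, GRCh38.p14, plus strand) had no called promoter region in DTP, while single regions inside the gene moved in opposite directions. The region with the highest promoter level, chr15:98650031-98650532, read 14.6, 11.8 and 13.5 CPM in DMSO and 19.2, 40.2 and 9.27 in DTP. With 11.02, 9.31 and 66.1 CPM in DTP + AZD5153, all 3 groups overlapped, and the highest values were those of the 2 promoter-rich libraries. The log2 fold change was 0.78 ± 0.71 (SE) in DTP against DMSO (adjusted p = 0.546) and 1.11 ± 0.71 in DTP + AZD5153 against DMSO (adjusted p = 0.308), and the latter was −0.39 (adjusted p = 0.582) without DTP + AZD5153 replicate 3. Summed over its 11 promoter regions, IGF1R had a log2 fold change of −0.34 ± 0.22 in DTP against DMSO (adjusted p = 0.434).

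The region of IGF1R that rose lies in the 3′ part of the gene, at chr15:98953895-98954396, 1100 bp from the start of an annotated transcript there. It was almost without reads in DMSO, with 9, 3 and 10 counts, or 0.816, 0.310 and 1.01 CPM. DTP had 3.54, 8.07 and 4.53 CPM and DTP + AZD5153 had 8.32, 8.26 and 19.7, so each treated library was above each control. No DMSO library had a deposited peak over it, and all 6 treated libraries did. The fold change was 7.39 (log2 2.88 ± 0.66, adjusted p = 0.0125) in DTP and 16.6 (log2 4.05 ± 0.68, adjusted p = 0.00178) in DTP + AZD5153. The second call held in all 9 fits that left out 1 library and the first in 6, with the highest adjusted p of 0.0984 without DMSO replicate 2. Without DTP + AZD5153 replicate 3 the log2 fold changes were 2.88 (adjusted p = 0.000321) and 3.51 (adjusted p = 5.47e-05).

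A set of 3 intronic regions of IGF1R fell in DTP. At chr15:98803701-98804202 the levels were 3.36, 6.92 and 5.33 CPM in DMSO, 0.956, 1.25 and 1.11 in DTP, and 0.902, 1.16 and 0.193 in DTP + AZD5153. The groups did not overlap, all DMSO libraries had a peak there, and no treated library did. This was a log2 fold change of −2.23 ± 0.64 (adjusted p = 0.0342) and −2.70 ± 0.67 (adjusted p = 0.0110) in the 2 treated groups against DMSO. The other 2 are neighbours, chr15:98713141-98713642 with −2.27 ± 0.65 (adjusted p = 0.0344) and chr15:98713668-98714169 with −1.96 ± 0.60 (adjusted p = 0.0451). With the replicate block these 2 gave adjusted p = 0.0529 and 0.0642 and were no longer called. Neither was called in DTP + AZD5153 (adjusted p = 0.0604 and 0.311), though the first was without replicate 3 of that group (adjusted p = 0.0121). The calls at the 3 regions held in 3, 4 and 2 of the 9 fits, with adjusted p of 0.191, 0.157 and 0.211 without DMSO replicate 2.

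Against DMSO, 4 annotated regions of IGF1R were called in DTP + AZD5153, 2 higher and 2 lower, when 9.05% of all regions were called higher and 9.01% lower. Beside the pair that moved in both comparisons these were chr15:98729526-98730027, an intronic region with 2.45, 1.24 and 2.92 CPM in DMSO and 7.41, 6.28 and 7.54 in DTP + AZD5153, which rose 3.20-fold (adjusted p = 0.0426). The promoter region of an internal transcript, chr15:98896329-98896830, fell from 19.0, 25.9 and 17.7 to 6.41, 8.84 and 1.16 CPM (log2 −1.91 ± 0.62, adjusted p = 0.0416). Both calls held in only 2 of the 9 fits and had adjusted p of 0.203 and 0.157 without DMSO replicate 2. The distal region with the highest level, chr15:98728140-98728641, read 22.4, 24.9 and 21.1 CPM in DMSO, 30.0, 44.8 and 33.03 in DTP, and 38.8, 52.6 and 60.3 in DTP + AZD5153. Both treated groups lay above the controls, but the log2 fold changes of 0.66 ± 0.47 (adjusted p = 0.418) and 1.15 ± 0.47 (adjusted p = 0.0998) were not called.

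INSR, the insulin receptor (chr19:7112265-7294414, minus strand), had no called region among its 11 annotated regions in any comparison. INSR also had 10 tested regions within 1 kb of the gene without an annotated row. In DTP + AZD5153 against DMSO it had 1 of them called lower, beside 9.01% of all regions. Its promoter levels were low in all libraries but the promoter-rich pair: chr19:7293930-7294431 read 4.08, 2.38 and 3.22 CPM in DMSO, 4.49, 16.98 and 2.52 in DTP, and 3.61, 3.26 and 25.3 in DTP + AZD5153. The log2 fold change against DMSO of 1.71 ± 0.82 in DTP + AZD5153 (adjusted p = 0.158) became 0.08 without replicate 3 of that group. The highest distal region, chr19:7098814-7099315, lies past the 3′ end of the gene and read 26.4, 35.0 and 26.2 CPM in DMSO and 43.5, 38.2 and 55.9 in DTP + AZD5153. These groups did not overlap, but the log2 difference of 0.65 ± 0.51 was not called (adjusted p = 0.418). Without DTP + AZD5153 replicate 3, 3 regions were called in that group against DMSO, 2 higher and 1 lower, when 18.4% of all regions were called higher and 17.3% lower. One of them, chosen after its values were seen, was the intronic region chr19:7256860-7257361, with 3.72, 3.31 and 2.51 CPM in DMSO, 6.02, 8.77 and 3.32 in DTP, and 9.32, 8.84 and 9.66 in DTP + AZD5153 (log2 1.54 ± 0.55, adjusted p = 0.0573, with an adjusted p of 0.0171 without that library and 0.0488 with the replicate block). It had a peak in all 6 treated libraries and in no DMSO library.

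IGF2R, the mannose-6-phosphate receptor that clears IGF2 (chr6:159969082-160111504, plus strand), lost acetylation at annotated regions inside the gene. Neither of its 2 promoter regions was called. Within 1 kb of the gene, 6 further tested regions had no annotated row. In DTP 1 of them was higher and 1 lower, beside 5.58% and 5.13% of all regions called. In DTP + AZD5153 1 was higher and 0 lower, beside 9.05% and 9.01%. Of the 9 annotated distal regions of IGF2R, 4 fell in DTP and the same 4 in DTP + AZD5153, and none rose. Of these, 3 form 1 stretch, 13953 to 15324 bp downstream of the start. At its middle region, chr6:159983788-159984289, the levels were 8.98, 11.3 and 9.55 CPM in DMSO, 2.30, 1.11 and 1.71 in DTP, and 2.00, 2.56 and 0.387 in DTP + AZD5153. The fold change was 0.175 (log2 −2.52 ± 0.63, adjusted p = 0.0179) and 0.173 (log2 −2.53 ± 0.63, adjusted p = 0.0116). The outer 2, chr6:159983052-159983553 and chr6:159984423-159984924, had log2 fold changes of −2.41 and −2.40 in DTP and −2.03 and −2.40 in DTP + AZD5153. All 3 had peaks in every DMSO library and in no treated library.

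The other one, chr6:160042371-160042872, showed the largest fall of the 4. It read 9.07, 18.1 and 13.98 CPM in DMSO, 3.35, 1.25 and 2.12 in DTP, and 1.20, 0.349 and 0.966 in DTP + AZD5153, so no group overlapped another. The log2 fold change was −2.59 ± 0.61 (adjusted p = 0.0136) in DTP and −4.01 ± 0.67 (adjusted p = 0.00170) in DTP + AZD5153, and the latter was called in all 9 fits. The step from DTP to DTP + AZD5153, −1.42 ± 0.65, had an adjusted p of 1. The 4 calls of the first comparison held in 3 to 5 of the 9 fits, with adjusted p of 0.0939 to 0.152 without DMSO replicate 2, and without DTP + AZD5153 replicate 3 all 4 held in both comparisons. In DTP + AZD5153 the 3 neighbouring calls held in 4, 8 and 7 of the 9 fits, and had adjusted p of 0.114, 0.0580 and 0.0945 without DMSO replicate 2. Summed over the 9 distal regions, IGF2R fell, with a log2 fold change of −0.94 ± 0.32 (adjusted p = 0.0443) and −1.10 ± 0.33 (adjusted p = 0.0198), beside 15.9% and 19.2% of all genes called lower on this measure. The first held in 3 of 9 fits, with adjusted p = 0.139 without DTP replicate 2, and the second in 6, with adjusted p = 0.0652 without DMSO replicate 3. With the library sizes of the region fit, a setting chosen after seeing the data, the adjusted p were 0.0533 and 0.0169.

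At the start of IGF2R, chr6:159969386-159969887 read 10.6, 12.6 and 10.4 CPM in DMSO, 14.5, 43.6 and 7.86 in DTP, and 12.2, 15.7 and 76.5 in DTP + AZD5153. Only the promoter-rich libraries stood above the rest. Its log2 fold changes were 0.97 ± 0.72 (adjusted p = 0.437) and 1.63 ± 0.73 (adjusted p = 0.130), the latter 0.31 without DTP + AZD5153 replicate 3. The highest distal region, chr6:159978791-159979292, had 9.35 to 10.8 CPM in DMSO and 5.03 to 8.03 in the treated libraries, and its log2 fold changes of −0.47 and −0.68 were not called.

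**Figure D2:**
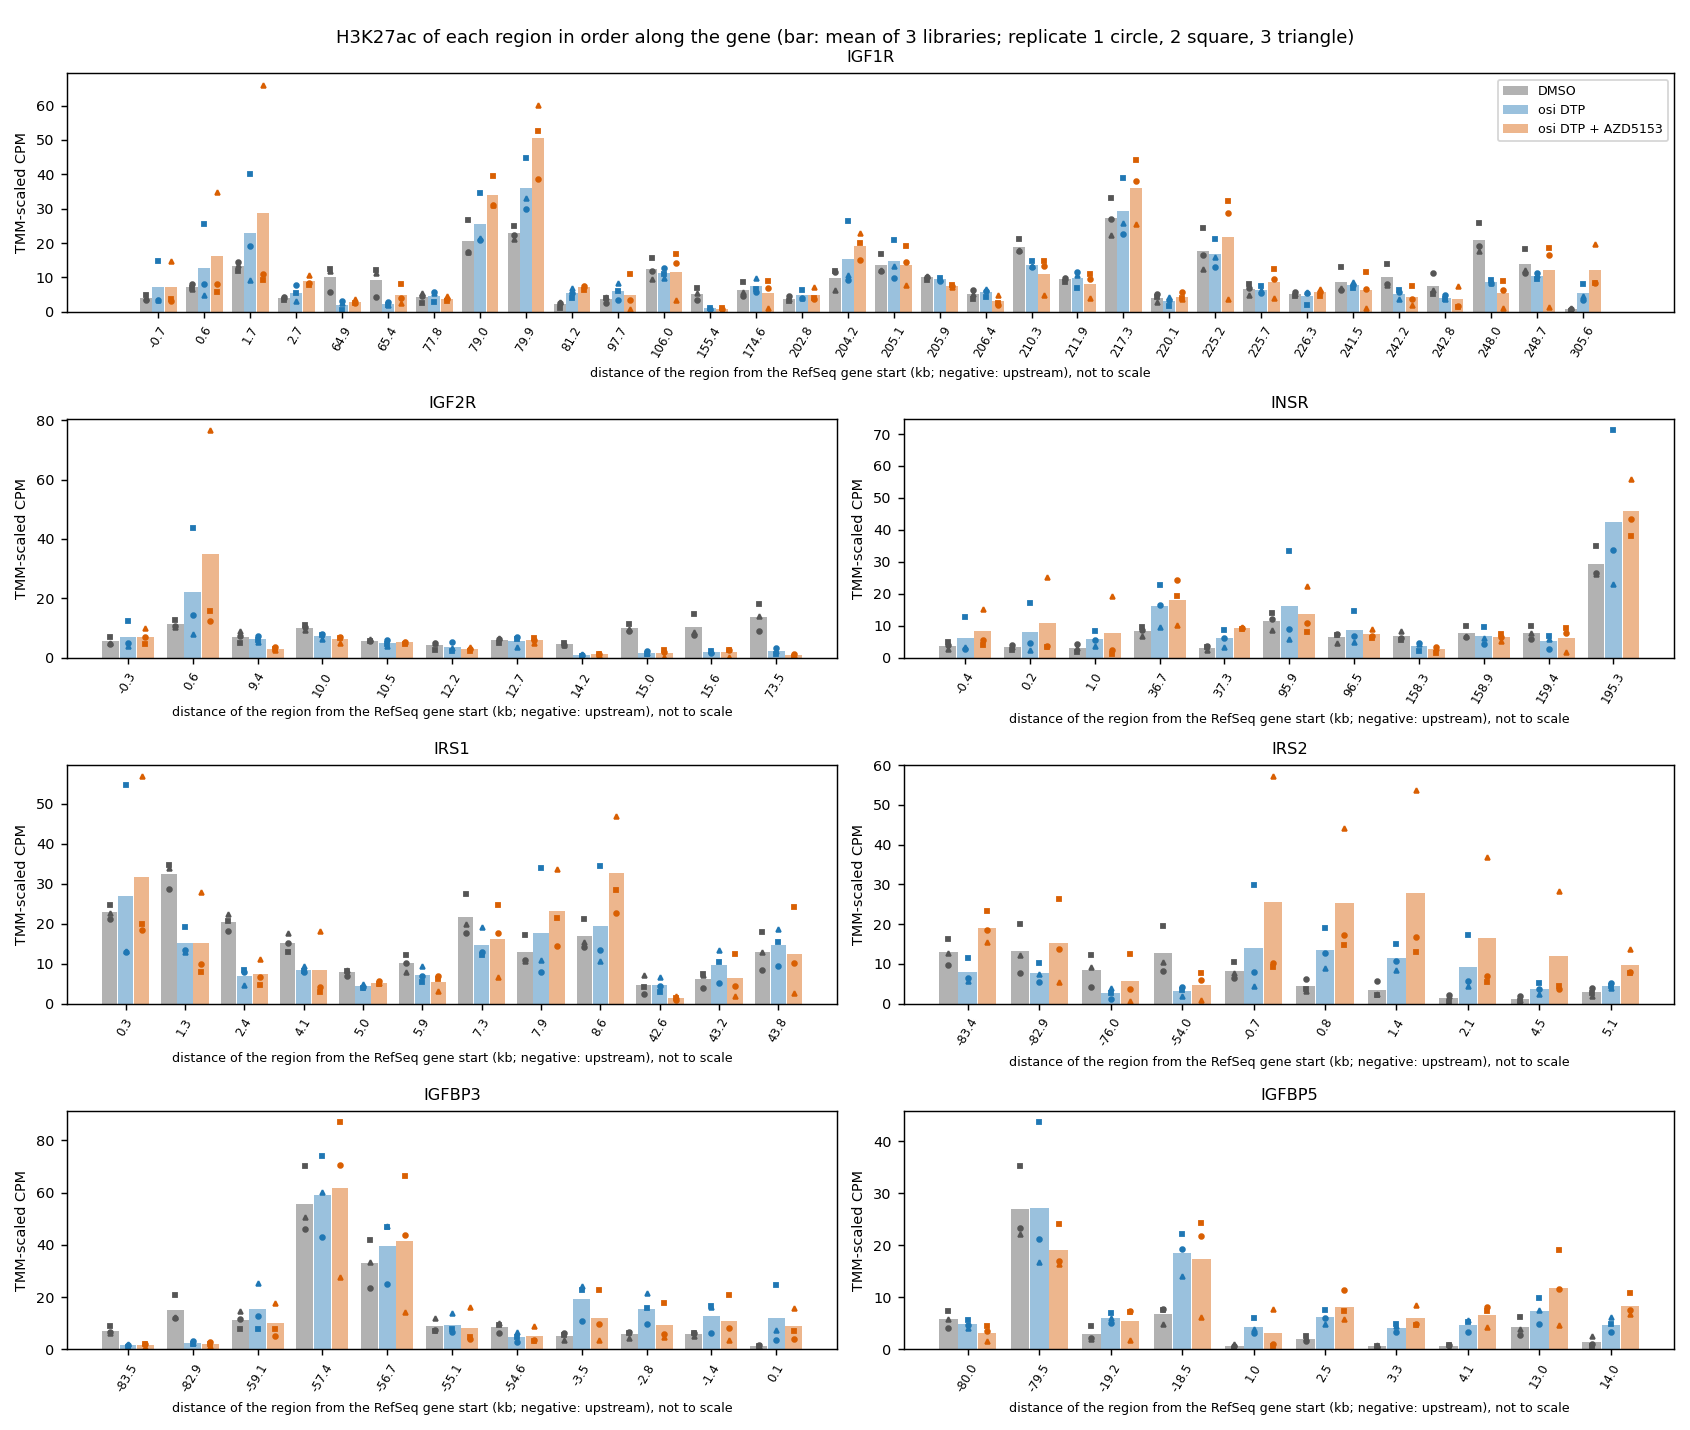
H3K27ac of each region of IGF1R, IGF2R, INSR, IRS1, IRS2, IGFBP3 and IGFBP5 in order along the gene; the x axis gives the distance from the RefSeq gene start in kb (not to scale), the y axis TMM-scaled CPM, bars the mean of 3 libraries and points the libraries. At IGF2R the DMSO bars stand above both treated groups at the 4 called distal regions. All 9 distal regions of IGF2R had negative log2 fold changes against DMSO in both treated groups. At IGFBP5 the treated bars stand above DMSO next to the start.

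IRS1, the insulin receptor substrate whose start lies at the end of chr2:226731312-226799820 (minus strand), had no called region among its 12 annotated regions. Of 3 tested regions within 1 kb of the gene without an annotated row, 1 was higher in DTP, beside 5.58% of all regions. The highest promoter region, chr2:226799278-226799779, read 21.1, 24.6 and 22.6 CPM in DMSO, 12.9, 54.6 and 13.2 in DTP, and 18.4, 20.0 and 56.8 in DTP + AZD5153. The 2 promoter-rich libraries lay above every control and the other treated libraries below. Its log2 fold changes were 0.24 ± 0.63 and 0.48 ± 0.63. The highest distal region, chr2:226791005-226791506, had 14.2 to 21.2 CPM in DMSO, 10.6 to 34.4 in DTP and 22.5 to 47.0 in DTP + AZD5153, with log2 fold changes of 0.20 and 0.94 that were not called. Without DTP + AZD5153 replicate 3, 2 of the 12 IRS1 regions were lower in DTP and 4 in DTP + AZD5153, and none was higher. In that fit 12.7% and 17.3% of all regions were called lower. The clearest, chosen after its values were seen, was the flank region chr2:226797202-226797703, with 18.05, 20.8 and 22.4 CPM in DMSO, 7.84, 8.49 and 4.63 in DTP, and 6.61, 4.65 and 11.02 in DTP + AZD5153. There every treated library was below every control, the log2 differences from DMSO were −1.55 ± 0.54 and −1.47 ± 0.54 (adjusted p of 0.0742 and 0.0687), and without that library −1.55 and −1.86 (adjusted p = 0.00772 and 0.00530).

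IRS2, the second widely expressed adaptor (chr13:109752695-109786583, minus strand), gained acetylation around its start in DTP + AZD5153. Of its 10 regions 5 were higher than in DMSO and none lower, when 9.05% of all regions were called higher. They run from the promoter into the gene, between 516 and 4887 bp downstream of the start. The largest changes were at the flank region chr13:109784235-109784736, with 2.27, 0.413 and 1.81 CPM in DMSO, 5.74, 17.3 and 4.43 in DTP, and 6.91, 5.47 and 36.9 in DTP + AZD5153. Its fold change was 10.8 (log2 3.43 ± 0.85, adjusted p = 0.0117), and 2.02 on the log2 scale (adjusted p = 0.0126) without replicate 3 of DTP + AZD5153. No DMSO library had a peak there and all treated libraries did.

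The exonic region of IRS2 at chr13:109781831-109782332 had 1.90, 0.620 and 0.905 CPM in DMSO, 3.54, 5.29 and 2.42 in DTP, and 3.71, 4.31 and 28.2 in DTP + AZD5153. The fold change of 10.3 (log2 3.36 ± 0.80, adjusted p = 0.00955) included replicate 3 as the highest library, and the log2 value without it was 1.78 (adjusted p = 0.0171). The flank region chr13:109784973-109785474 had 5.62, 2.07 and 2.41 CPM in DMSO and 16.8, 12.9 and 53.7 in DTP + AZD5153 (log2 3.03 ± 0.67, adjusted p = 0.00662, or 2.13 and 0.00204 without replicate 3). All 5 regions stayed called without that library, and each had every DTP + AZD5153 library above every control. Calls at these 3 regions held in 7 of 9 fits and had adjusted p of 0.0757, 0.0675 and 0.0564 without DMSO replicate 2. The other 2 were the promoter region chr13:109785566-109786067 (log2 2.52) and the intronic chr13:109781195-109781696 (log2 1.79), with adjusted p of 0.0747 and 0.173 without DMSO replicate 3.

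In DTP against DMSO the same 5 regions of IRS2 had positive log2 fold changes, from 0.67 to 2.59, that were not called. Of these 5, 4 were called higher without DTP + AZD5153 replicate 3, while 2 intergenic regions upstream, chr13:109840372-109840873 and chr13:109862307-109862808, were called lower in that fit, with log2 fold changes of −1.98 (adjusted p = 0.00248) and −1.73 (adjusted p = 0.0194). The shares of all regions there were 14.2% higher and 12.7% lower. The highest promoter region, chr13:109787048-109787549, was called in no comparison, with 6.53, 10.4 and 7.74 CPM in DMSO, 8.03, 29.8 and 4.43 in DTP, and 10.1, 9.31 and 57.2 in DTP + AZD5153. Summed over both promoter regions, IRS2 rose in DTP + AZD5153 from 43.3, 37.0 and 38.6 to 85.5, 71.3 and 157 CPM. The log2 fold change was 1.40 ± 0.30 (adjusted p = 0.0154), and 1.00 (adjusted p = 0.00650) without replicate 3, beside 6.89% of all genes called higher. The adjusted p was 0.0696 without DMSO replicate 2, and the call was also lost without DMSO replicate 3. With the library sizes of the region fit the log2 fold change was 2.01 ± 0.64 (adjusted p = 0.0916). DTP lay between, at 71.3, 69.8 and 53.9 CPM (log2 0.71 ± 0.29, adjusted p = 0.203).

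**Figure D3:**
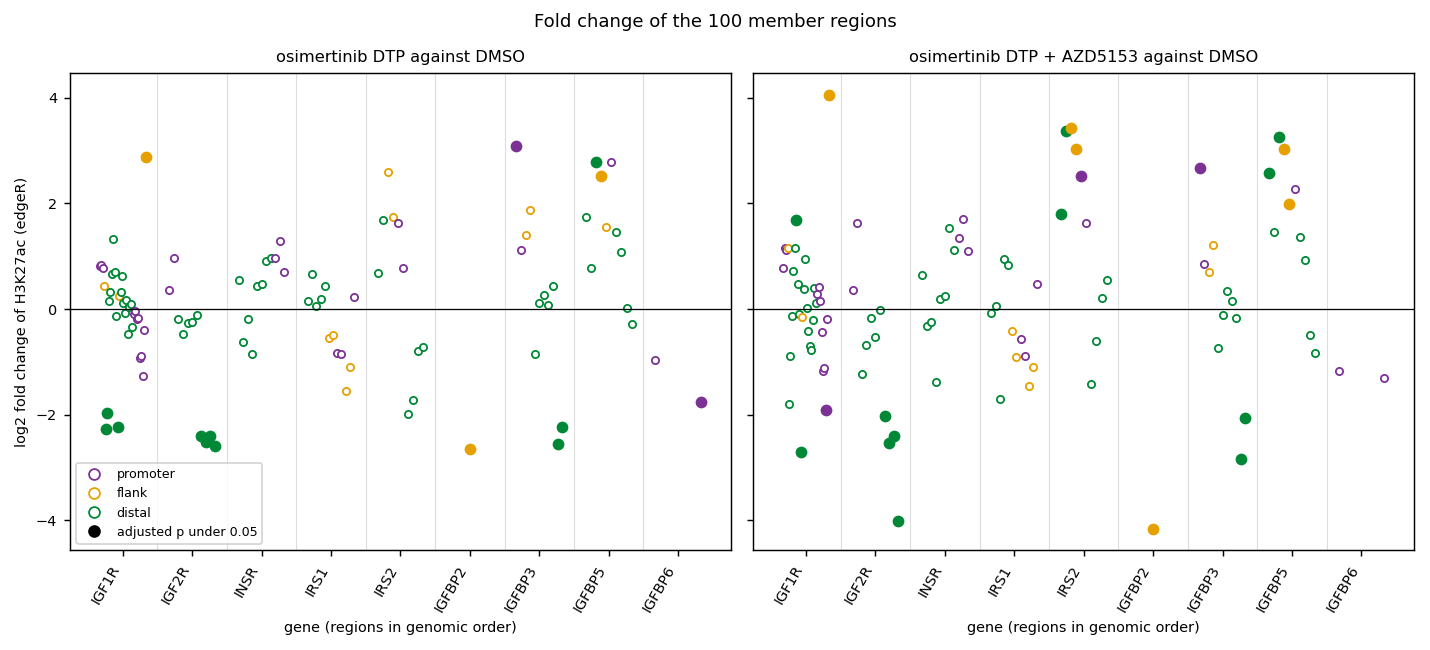
Log2 fold change (y axis, edgeR) of each of the 100 member regions by gene (x axis, regions in genomic order), for DTP (left) and DTP + AZD5153 (right) against DMSO; colours mark promoter, flank and distal regions and filled points those called. On the left 4 points are filled above 0 and 11 below, and on the right 12 above, among them 5 at IRS2, and 9 below.

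IGFBP2 and IGFBP5 are neighbours on chromosome 2 (chr2:216632828-216664436, plus strand, and chr2:216672105-216695549, minus strand), and their acetylation moved in opposite directions. IGFBP2 encodes a binding protein often found at high levels in tumours. Its only annotated region, chr2:216636360-216636861, 2931 bp downstream of an annotated start, fell from 3.54, 3.92 and 5.43 CPM in DMSO to 0.956, 0.557 and 0.504 in DTP and 0.100, 0.116 and 0.580 in DTP + AZD5153. In the last group these values were 1, 1 and 3 counts. On the log2 scale this was −2.64 ± 0.70 (adjusted p = 0.0234) and −4.15 ± 0.81 (adjusted p = 0.00331). The second call held in all 9 fits. The first held in 3, with the highest adjusted p of 0.143 without DMSO replicate 3. All DMSO libraries and no treated library had a peak over this region.

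Within 1 kb of IGFBP2, 5 further counted regions have no annotated row. Of these, 4 were tested, and 3 fell in DTP: chr2:216634194-216634695 (log2 −2.87, adjusted p = 0.0275), chr2:216634810-216635311 (log2 −3.82, adjusted p = 0.0169) and chr2:216636904-216637405 (log2 −3.13, adjusted p = 0.00967). The last of them held 29, 53 and 69 counts in DMSO, 8, 2 and 6 in DTP, and 5, 7 and 5 in DTP + AZD5153. The first and the last were also lower in DTP + AZD5153 (adjusted p = 0.0308 and 0.0111). At these 3 regions the DMSO means of 4.57, 2.64 and 5.01 CPM were below the 6.41, 4.28 and 6.95 CPM of the input. Peaks were present there in 2, 1 and 2 DMSO libraries. Over all members, 89 counted regions within 1 kb of the genes had no annotated row. Of the 84 tested, 4 were higher and 4 lower in DTP, beside 5.58% and 5.13% of all regions, and 6 were higher and 5 lower in DTP + AZD5153, beside 9.05% and 9.01%.

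IGFBP5, a binding protein that also attaches to extracellular matrix, gained acetylation in DTP at 2 of 10 regions and lost it at none. Over all regions, 5.58% were called higher. The region chr2:216691152-216691653, intronic and 3014 bp from the nearest annotated start, read 0.907, 0.826 and 0.302 CPM in DMSO, 3.25, 5.29 and 5.74 in DTP, and 8.12, 7.45 and 4.25 in DTP + AZD5153. Every treated library lay above every control, and peaks were present in all 6 treated libraries and in no control. The fold change was 6.87 (log2 2.78 ± 0.63, adjusted p = 0.0112) and 9.58 (log2 3.26 ± 0.63, adjusted p = 0.00323). The adjacent flank region chr2:216691981-216692482 had 0.544, 0.723 and 0.905 CPM in DMSO, 3.25, 4.87 and 4.43 in DTP, and 4.81, 4.65 and 8.50 in DTP + AZD5153. Its log2 fold changes were 2.51 ± 0.59 (adjusted p = 0.0140) and 3.02 ± 0.60 (adjusted p = 0.00368). Both calls in DTP + AZD5153 held in all 9 fits. Those in DTP held in 7 and 5, with the highest adjusted p of 0.0916 without DMSO replicate 3 and 0.0897 without DMSO replicate 2.

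In all, 4 IGFBP5 regions were called higher in DTP + AZD5153, beside 9.05% of all regions. The third by size was the intronic region chr2:216681287-216681788, which went from 0.998, 0.723 and 2.51 CPM to 7.61, 10.8 and 6.77 (log2 2.57 ± 0.61, adjusted p = 0.00940, or 0.0744 without DMSO replicate 2). DTP had 3.25, 4.87 and 6.14 CPM there, above every control but with an adjusted p of 0.0711. Without DTP + AZD5153 replicate 3, 6 regions were called higher in DTP and 7 in DTP + AZD5153, and none lower. In that fit 14.2% and 18.4% of all regions were called higher. The promoter region chr2:216694260-216694761 read 0.635, 0.103 and 1.11 CPM in DMSO, 3.06, 5.98 and 3.93 in DTP, and 1.10, 0.582 and 7.73 in DTP + AZD5153. In DTP its log2 fold change was 2.78 ± 0.90 (adjusted p = 0.0551), and it was called with the replicate block (adjusted p = 0.0453). In DTP + AZD5153, replicates 1 and 2 were within the DMSO range and replicate 3 was above it (log2 2.26 ± 0.91, adjusted p = 0.0911, or 0.45 and 0.662 without replicate 3).

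The distal region of IGFBP5 with the highest level, chr2:216774764-216775265, has an annotated distance of −79215 bp to the start and was not called. It had 22.2 to 35.3 CPM in DMSO, 16.8 to 43.7 in DTP and 16.4 to 24.1 in DTP + AZD5153, and log2 fold changes of 0.01 and −0.49. Summed over 7 distal regions, IGFBP5 was at 134, 138 and 124 CPM in DMSO, 201, 262 and 185 in DTP, and 202, 219 and 217 in DTP + AZD5153. The log2 fold changes of 0.71 ± 0.24 (adjusted p = 0.0453) and 0.69 ± 0.24 (adjusted p = 0.0434) were called, beside 18.6% and 23.7% of all genes called higher. The first gave adjusted p = 0.0540 with the replicate block, and both calls held in only 1 of 9 fits, with the highest adjusted p of 0.206 without DTP replicate 2 and 0.155 without DMSO replicate 3. With the library sizes of the region fit they had adjusted p of 0.332 and 0.331.

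IGFBP3, the main carrier of IGFs in blood and a gene widely studied in lung cancer (chr7:45912245-45921272, minus strand), gained acetylation at its start and lost it at a far upstream pair. The region that rose, chr7:45920874-45921375, spans the start. It is the member promoter with the largest change, and the 250 bases before the start, chr7:45921273-45921522 on the minus strand in RefSeq GRCh38.p14, overlap it. They are shown 5′ to 3′, with matches to the SP1 motif GGGCGG, on either strand, in capitals.
IGFBP3 promoter: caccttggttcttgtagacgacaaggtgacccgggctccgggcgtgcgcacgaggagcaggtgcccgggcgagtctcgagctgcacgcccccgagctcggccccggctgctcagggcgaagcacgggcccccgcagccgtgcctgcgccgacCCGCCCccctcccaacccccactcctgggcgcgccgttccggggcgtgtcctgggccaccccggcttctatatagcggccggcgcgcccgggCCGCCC
The window is 76.0% G and C and holds 2 SP1 matches. It holds none of the other 5 motifs searched.

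The levels at this IGFBP3 region were 1.81, 1.14 and 1.21 CPM in DMSO, 3.54, 24.8 and 7.45 in DTP, and 3.91, 7.21 and 15.7 in DTP + AZD5153. All treated libraries were above all controls, and the highest in each treated group was its promoter-rich library. The fold change was 8.47 (log2 3.08 ± 0.75, adjusted p = 0.0167) in DTP and 6.32 (log2 2.66 ± 0.75, adjusted p = 0.0212) in DTP + AZD5153. With the replicate block both were no longer called (adjusted p = 0.0542 and 0.0532). Without DTP replicate 2 its log2 fold change was 2.03 (adjusted p = 0.113). Without DTP + AZD5153 replicate 3 the values were 3.07 (adjusted p = 0.000527) and 1.98 (adjusted p = 0.0169). The second call held in 6 of 9 fits, with adjusted p = 0.106 without DMSO replicate 2. No DMSO library, 2 of 3 DTP libraries and all DTP + AZD5153 libraries had a peak over the region. It held 12 input counts, against a median of 10 over all regions.

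The other promoter region of IGFBP3, chr7:45922396-45922897, had the higher mean level and was not called, with 6.44, 6.40 and 5.13 CPM in DMSO, 6.12, 16.6 and 16.2 in DTP, and 8.02, 20.7 and 3.48 in DTP + AZD5153 (log2 1.11 and 0.85, adjusted p = 0.295 and 0.391).

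Further upstream of IGFBP3, the flank regions chr7:45923827-45924328 and chr7:45924561-45925062 were above DMSO in every DTP library, at 9.56 to 21.5 and 10.9 to 24.2 CPM against 4.53 to 6.62 and 3.72 to 6.44. Their log2 fold changes of 1.41 ± 0.60 and 1.88 ± 0.65 were not called (adjusted p = 0.142 and 0.0700), but were without DTP + AZD5153 replicate 3 (adjusted p = 0.0270 and 0.00440). The pair that fell is intergenic, with annotated distances of −82064 and −82667 bp to the start. At chr7:46003938-46004439 the levels were 11.9, 20.9 and 12.4 CPM in DMSO, 3.16, 1.95 and 2.52 in DTP, and 2.71, 2.09 and 1.35 in DTP + AZD5153. This was −2.55 ± 0.56 (adjusted p = 0.00998) and −2.85 ± 0.57 (adjusted p = 0.00387), the second called in all 9 fits and the first in 6, with adjusted p = 0.0849 without DMSO replicate 2.

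At its neighbour, chr7:46004541-46005042, 6.62, 8.78 and 6.24 CPM in DMSO became 1.63, 0.974 and 1.91 in DTP and 2.00, 2.09 and 0.966 in DTP + AZD5153 (log2 −2.24 ± 0.57 and −2.06 ± 0.57, adjusted p = 0.0203 and 0.0199, or 0.124 and 0.0961 without DMSO replicate 2). Both intergenic regions had peaks in all DMSO libraries and in no treated library. The highest distal region of IGFBP3, chr7:45978452-45978953, had 46.3 to 70.1 CPM in DMSO, 43.0 to 73.9 in DTP and 27.6 to 87.0 in DTP + AZD5153, and its log2 fold changes were 0.09 ± 0.51 and 0.15 ± 0.51. This region held 40 input counts, the most of any member region.

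IGFBP6, a binding protein that prefers IGF2 (chr12:53097667-53102340, plus strand), had lower acetylation at its promoter in both treated groups. Both of its regions are promoter regions. Its window of 250 bases before the start, chr12:53097417-53097666, on the plus strand in RefSeq GRCh38.p14, was the only 1 of the 12 windows of the 10 genes with a forkhead match (TGTTTAC), which 2.98% of 35116 RefSeq windows hold. It is shown because its sum was called in both treated groups, 5′ to 3′, with the matches to forkhead, TEAD (GGAATG) and SP1, on either strand, in capitals.
IGFBP6 promoter: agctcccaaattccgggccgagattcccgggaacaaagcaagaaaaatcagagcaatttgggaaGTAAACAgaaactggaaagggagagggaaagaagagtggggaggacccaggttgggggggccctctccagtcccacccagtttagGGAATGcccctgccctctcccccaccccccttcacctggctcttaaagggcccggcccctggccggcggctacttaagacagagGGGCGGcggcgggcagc
It holds 1 match of each. Among the 12 member windows, TEAD matches were in 3 (11.9% of all windows), SP1 matches in 10 (42.6%), the E-box CACGTG in 1 (6.34%), that of IGF2R, and the AP-1 motifs TGACTCA and TGAGTCA (4.20%) and the CRE TGACGTCA (1.65%) in none. A match is a description of the letters and no sign of a bound factor.

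Summed over both regions, IGFBP6 read 173, 198 and 184 CPM in DMSO, 49.6, 57.4 and 62.4 in DTP, and 78.3, 40.2 and 56.8 in DTP + AZD5153. On the scaling of the promoter sums, treated and control libraries were far apart and the treated groups overlapped. The log2 fold change was −1.71 ± 0.24 (adjusted p = 0.00780), or −1.66 ± 0.24 (adjusted p = 0.00370) in DTP + AZD5153, when 3.35% and 7.04% of all genes were called lower at their promoter sum. The call held in 8 of 9 fits in DTP, with adjusted p = 0.0515 without DMSO replicate 2, and in all 9 in DTP + AZD5153. Without DTP + AZD5153 replicate 3 the values were −1.70 (adjusted p = 0.00155) and −1.63 (adjusted p = 0.00234). Neither was called with the library sizes of the region fit, a setting chosen after seeing the data, which gave −1.36 ± 0.56 (adjusted p = 0.352) and −1.25 ± 0.56 (adjusted p = 0.286).

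Of the 2 regions of IGFBP6, the downstream one was called in DTP. At chr12:53099019-53099520 the levels were 28.4, 44.2 and 29.0 CPM in DMSO, 8.03, 12.5 and 9.57 in DTP, and 17.8, 10.01 and 12.95 in DTP + AZD5153 (log2 −1.75 ± 0.52 and −1.31 ± 0.51, adjusted p = 0.0385 and 0.0838). This single call held in 2 of 9 fits, with adjusted p = 0.220 without DMSO replicate 2. At chr12:53097613-53098114, over the start, DMSO had 22.7, 31.6 and 23.3 CPM. Replicates 1 and 3 of DTP had 6.41 and 6.04 and replicates 1 and 2 of DTP + AZD5153 had 7.31 and 3.49, while the promoter-rich libraries had 27.6 and 23.8, within the DMSO range. This region was not called (adjusted p = 0.437 and 0.276), and in DTP + AZD5153 it was without replicate 3 (log2 −2.26, adjusted p = 0.00754).

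**Figure D4:**
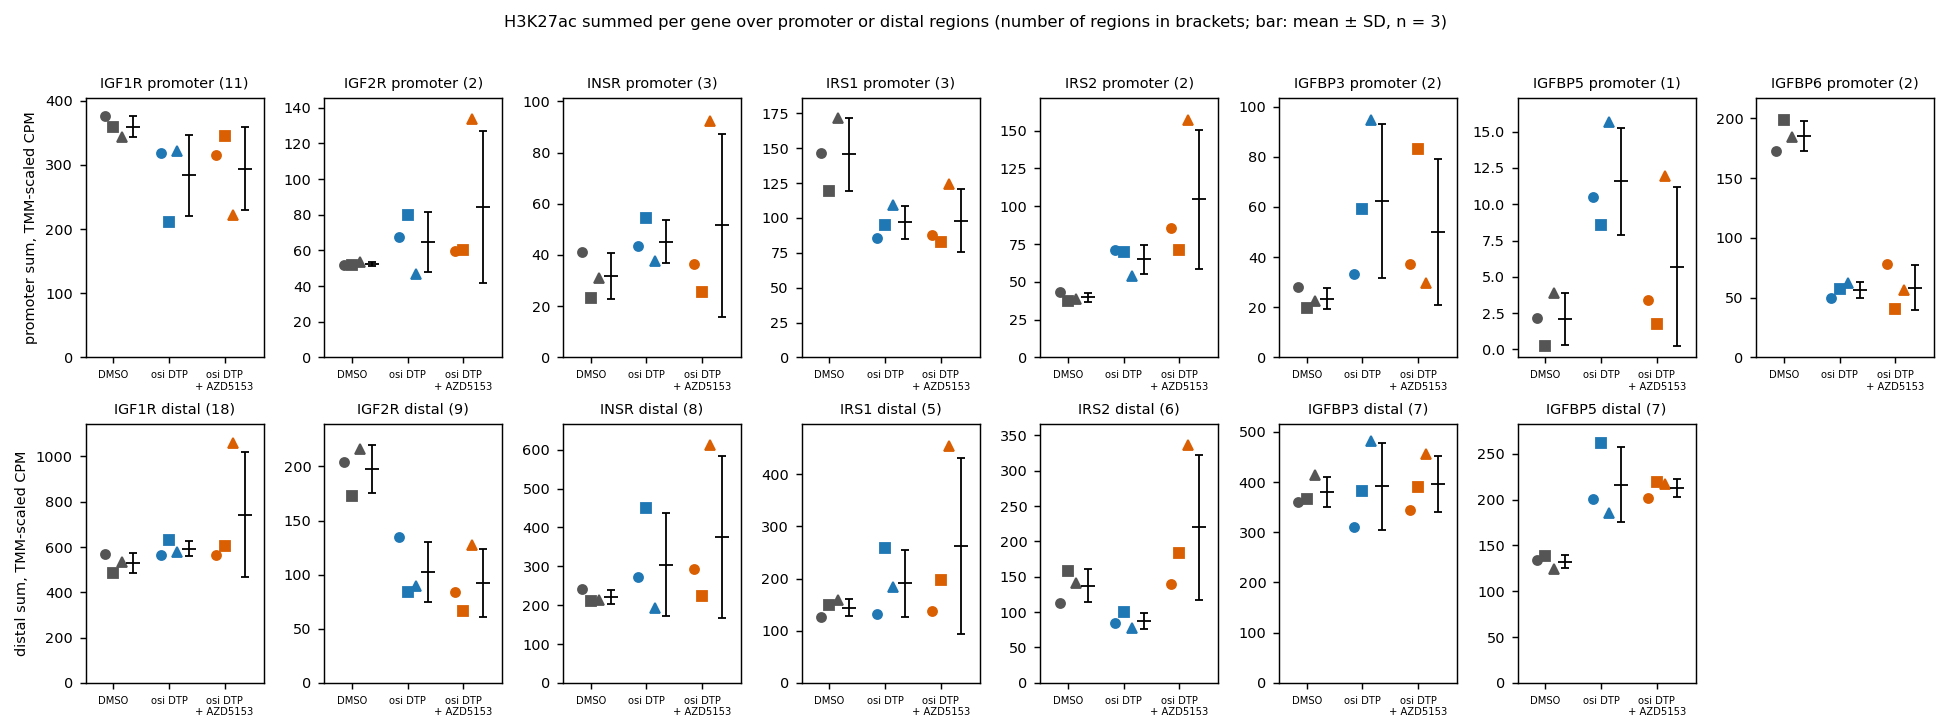
H3K27ac summed over the promoter regions (upper row) or distal regions (lower row) of each member, as CPM with the TMM scaling of those sums on the y axis by group on the x axis; points are libraries, bars mean ± SD of 3, and titles give the number of regions. IGFBP6 at its promoters lies at 173 to 198 CPM in DMSO and at 40.2 to 78.3 in the 6 treated libraries, and IRS2 at its promoters at 37.0 to 43.3 and 53.9 to 157.

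Over all members, DTP + AZD5153 against DMSO had 12 regions higher and 9 lower, beside 9.05% and 9.01% of all regions. In the fit of annotated regions alone, 13 were higher and 11 lower, and 24.5% of those regions were called. The median log2 fold change was 0.14 for members and 0.23 for all regions, and without TMM scaling the latter was −0.02. That setting also called 10 higher and 11 lower. Every DTP + AZD5153 library lay above every control at 20 member regions and below at 24, beside 14.4% and 19% of all regions. Both comparisons with DMSO use the same controls. Of the 21 calls, all were among the 37 made without DTP + AZD5153 replicate 3 (18 higher and 19 lower, beside 18.4% and 17.3%), and 6 held in all 9 fits: 1 each at IGF1R, IGF2R, IGFBP2 and IGFBP3 and 2 at IGFBP5. The number of calls was 14, 6 and 9 without DMSO replicate 1, 2 or 3, when 10.6%, 5.16% and 6.14% of all regions were called.

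For the addition of AZD5153, DTP + AZD5153 against DTP, no member region was called by edgeR, nor was any of the 157919 regions (0% higher and 0% lower). At an unadjusted p under 0.05, 5 member regions passed, as did 2519 regions higher and 4494 lower of all. DESeq2 called 0 member regions and 94 of all. DTP + AZD5153 lay wholly above DTP at 6 member regions and wholly below at 4, beside 2.83% and 5.4% of all regions. The 3 with the smallest unadjusted p all had an adjusted p of 1. They were the IRS1 intronic region chr2:226756945-226757446, with 4.49, 2.92 and 6.65 CPM in DTP and 0.902, 1.40 and 1.93 in DTP + AZD5153 (log2 −1.76 ± 0.63), and 2 IRS2 regions. At the intergenic chr13:109869759-109870260 the values were 6.501, 11.4 and 5.64 CPM and 18.4, 23.3 and 15.5, with no overlap (log2 1.28 ± 0.53). At chr13:109781831-109782332, described above, the log2 difference was 1.68 ± 0.74 and the groups overlapped.

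IRS2 was picked for this comparison after its values were seen. Its 10 regions all had positive log2 differences, from 0.57 to 1.68, and none was called. Their median was 1.06, against 0.06 for all regions. The 10 values come from 1 locus in the same libraries and are not separate results. The share of all genes with only positive regions was not computed. The IRS2 regions were positive with each scaling tried. Without DTP + AZD5153 replicate 3, 8 of 10 were positive, with a median of 0.60 against −0.17 for all regions. In that fit 0.0637% of all regions were called higher and 0.0587% lower, and 0 member regions. With both promoter-rich libraries left out, a setting chosen after seeing the data, 3 member regions were called: the IRS1 region lower (log2 −2.22, adjusted p = 0.0446), and 2 IRS2 regions higher, chr13:109869759-109870260 (log2 1.83, adjusted p = 0.0273) and its neighbour chr13:109869217-109869718 (log2 1.71, adjusted p = 0.0457). In that setting 2.11% of all regions were called.

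The deposited peak lists put a peak over 71 to 89 of the 100 member regions per library, the fewest in DTP + AZD5153 replicate 3, beside 64.1% to 85.0% of all annotated regions. All 9 libraries had a peak at 42 regions, beside 40.5% of all annotated regions, and no region was without one. At 7 regions, beside 5.86% of all annotated regions, all DMSO libraries and no treated library had a peak: 3 of IGF2R, 2 of IGFBP3, and 1 each of IGF1R and IGFBP2. All 7 were called lower in DTP. At 10 regions, beside 10.5%, no DMSO library and at least 3 treated libraries had one, of which 5 belong to IGFBP5, 2 to IRS2, and 1 each to IGF1R, INSR and IGFBP3. Peak lists and counts come from the same reads.

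Of 57 other genes of the pathway, listed with earlier results of these data known, 44 were tested at a promoter sum and 33 at a distal sum. In DTP 3 promoter sums rose and 0 fell, beside 2.80% and 3.35% of all genes, and 6 distal sums rose and 1 fell, beside 18.6% and 15.9%. The distal sum of IGF1, the ligand of IGF1R, went from 48.9, 63.0 and 68.5 CPM in DMSO to 165, 243 and 384 in DTP (log2 2.13 ± 0.48, adjusted p = 0.00705). The promoter sum of PAPPA, a protease that cleaves IGF binding proteins and frees IGFs, went from 19.4, 7.03 and 7.45 to 76.6, 68.6 and 47.1 (log2 2.50 ± 0.40, adjusted p = 0.0103). The distal sum of IGFBP7, a low-affinity relative of the IGF binding proteins, went from 77.01, 41.3 and 41.0 to 196, 222 and 170 (log2 1.88 ± 0.33, adjusted p = 0.00202). In all 3 the groups did not overlap.

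Among signal transducers, the single distal region of PIK3CA, the catalytic subunit of PI3K, held 1.15, 0.685 and 1.496 CPM in DMSO and 30.8, 9.99 and 29.9 in DTP (log2 4.39 ± 0.60, adjusted p = 0.000932). The DMSO values were 4, 3 and 5 counts, which limits the precision of this fold change. The distal sum of SOS2, an exchange factor for RAS, held 6.61, 7.31 and 6.88 and 33.3, 34.4 and 42.2 (log2 2.39 ± 0.48, adjusted p = 0.00416). In both the groups did not overlap. In DTP + AZD5153 against DMSO, 6 promoter sums rose and 1 fell, beside 6.89% and 7.04% of all genes, and 7 distal sums rose and 3 fell, beside 23.7% and 19.2%. PIK3CA (log2 3.09, adjusted p = 0.00247), PAPPA (2.85, adjusted p = 0.00370), IGFBP7 at its promoter (2.32, adjusted p = 0.0186) and SOS2 (2.31, adjusted p = 0.00366) were higher. The distal region of CBL, a ubiquitin ligase that takes receptors down, fell from 42.8, 39.3 and 33.5 to 6.55, 7.85 and 7.08 CPM (log2 −2.42 ± 0.43, adjusted p = 0.00152). Between the treated groups 0 sums of these genes were called. The sums of these pathway genes were not followed through the other settings, so their dependence on single libraries or scaling was not tested.

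As a description of likeness over the 9 libraries, the distal sum of IGF1R (log2 CPM) had its highest Pearson correlations, of 8142 other genes, with those of TTC7A (0.982), CPA5 (0.981) and LIF (0.979). Those of INSR were with INCENP (0.995), FOXC1 (0.991) and CD34 (0.991), of IRS2 with RAPGEF1 (0.973), ALG10B (0.972) and HS1BP3-IT1 (0.958), and of IGFBP3 with KRT85 (0.936), CALML3-AS1 (0.875) and ARSI (0.870). The points share libraries, and the correlations rest on the scaling of the distal sums. On that scaling, DTP + AZD5153 replicate 3 had the highest distal sum of the 9 libraries for IGF1R (1060 CPM), INSR (613 CPM) and IRS2 (336 CPM). Its unscaled counts were 1048, 606 and 332, the lowest of the 9 libraries for IGF1R and INSR.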

How the data were processed

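The deposited tables give whole-number read counts per region as the authors made them, without normalization: 1 for all 169637 regions with the input, and 1 for the annotated subset, with equal counts. The authors also deposited a peak list per library, with fold enrichment as a ratio and p and q as −log10 values. Only the presence of a peak (1 base of overlap) was used. The submitters' processing notes name hg38, BWA 0.7.17, MACS2 2.2.6, featureCounts 2.0.0 and ChIPseeker 1.29.1, without roles. Thresholds and duplicate handling are not given in the sources used here. The paper does not describe this experiment, so no method of the study was followed.

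Counts were tested with edgeR 4.0.16 in R 4.3.3 (limma 3.58.1): filterByExpr (minimum count 10), TMM, glmQLFit with robust estimation and glmQLFTest, 9 libraries in 1 fit with a mean per group, and Benjamini-Hochberg adjustment over all features at 0.05. Promoter sums (12295 genes) and distal sums (8143 genes) were fitted in the same way, each with its own TMM scaling. SE is the log2 fold change divided by the root of F. DESeq2 1.42.0 and the other alternatives are under the closing section. Members and lists were chosen with earlier results of these data known. Regions named are, per member, the highest promoter and distal region and up to 3 called in each direction, and with no call the 3 smallest p values. No pair of replicates agreed within sampling noise (lowest chi-square per degree of freedom 4.00). Pairing was checked by the correlation of same-numbered libraries' deviations from their group means. For osimertinib DTP and DMSO these were 0.334, 0.355 and 0.324, so these numbers pair by the data. The labels do not say what a number marks. For DTP + AZD5153 and DTP the values were 0.243, 0.026 and −0.240. For DTP + AZD5153 and DMSO they were −0.018, 0.553 and 0.362. Each of these comparisons thus had a value under 0.1, while replicates 2 and 3 of the last had high ones.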

Additional observations from a re-analysis of the deposited data

Results flagged for a closer look

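IGFBP4, a binding protein that mostly withholds IGFs from the receptor, has no annotated row, but its start is covered in the table of all regions. At chr17:40442962-40443463 the counts were 45, 33 and 19 in DMSO, 25, 52 and 9 in DTP, and 21, 17 and 54 in DTP + AZD5153, with 7 in the input. The highest group mean, 4.84 CPM in DTP + AZD5153, was above the 3.74 CPM of the input, which drew attention to it as signal outside the annotated regions. Without replicate 3 the mean of that group was 2.04 CPM. Of the 9 libraries, 4 had a peak there. The log2 fold changes of 0.14 and 0.59 against DMSO were not called (adjusted p = 0.939 and 0.646).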

How the results depend on the processing

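The 36 member region calls and 7 called member sums kept their sign in all 612 and 119 values of the other settings. The 15 member regions called in DTP against DMSO (10.7% of all regions called) became 23 with DESeq2 (17.7%), 30 with only the libraries of the 2 groups (26.4%) and 31 with both promoter-rich libraries left out (26.9%), and 0 to 31 with 1 library left out (0.701% to 26.8%). Against DTP, DTP + AZD5153 had 0, which became 3 with both promoter-rich libraries left out (2.11%) and stayed at 0 to 0 with 1 library left out. Against DMSO its 21 (18.1%) became 43 with both promoter-rich libraries left out (42.6%) and 6 to 37 with 1 library left out (5.16% to 35.7%). Promoter sums called in DTP went from 1 to 3 with DESeq2, 4 with only the 2 groups, 3 without both promoter-rich libraries, 0 with the library sizes of the region fit and 0 to 5 with 1 library left out. In DTP + AZD5153 against DMSO, 2 became 0 with those library sizes and 1 to 4, and between the treated groups 0 became 0 to 0. Distal sums called in DTP went from 2 to 1 without TMM, with a loess offset or with the replicate block, to 0 with the library sizes of the region fit and to 0 to 3. In DTP + AZD5153 against DMSO, 2 became 1 without TMM, with a loess offset, with only the 2 groups or with the region library sizes, and 0 to 2. Between the treated groups 0 became 1 with DESeq2 and 0 to 0. Over all genes and these settings, the share of promoter sums called ran from 0.0895% to 17.7% in DTP and 3.46% to 37.6% in DTP + AZD5153, both against DMSO, and that of distal sums from 19.9% to 52.1% and 28.3% to 56.6%. With the replicate block, 13, 0 and 21 member regions were called in the 3 comparisons. The settings that left out both promoter-rich libraries or used the region library sizes were chosen after seeing the data. The cause of these shifts was not tested.

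The 31 named values that were called gave 279 values with 1 library left out, of which 179 stayed called, and 248 in the other settings, of which 233 did. The median log2 change over all regions was 0.15, 0.06 and 0.23 for DTP against DMSO and for DTP + AZD5153 against DTP and against DMSO, and 0.06, −0.09 and −0.02 without TMM. Some called regions hold 10 counts or fewer in each library of a group, which limits the precision of their fold changes.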
